A study of Mus musculus with 4 samples.

Results

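Arg1, Pf4, Spp1, Fn1, Vegfa, Thbs1, Trem2, Gpnmb and Nos2 are genes used to describe macrophages of tumours. These 9 genes, of the 32285 features in the files, were chosen by their levels in earlier results of these same data, which are therefore a description here. Their raw transcript counts were read in all 4 single-cell libraries of the study, in cells holding at least 1 unique molecular identifier (UMI, the tag of 1 captured transcript) of Lyz2, a lysozyme gene of myeloid cells, and in all other cells. All 9 symbols were found once in the features. Against their name, they were not all highest in macrophages here. Arg1, Spp1, Fn1 and Thbs1 at 12 h lay mostly in a cluster named from monocyte genes, and of the 9 genes Pf4 and Trem2 were higher in the cells with C1q genes of macrophages in the IL-22-positive libraries.

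The study sorted CD45-positive leukocytes from livers of mice of the genotype IL-22sgBFP, a reporter in which blue fluorescent protein (BFP) stands for Il22 expression. The 4 groups were BFP-positive (IL-22-positive) cells 12 h after MC38 cells were injected into the spleen, IL-22-positive cells before the injection (0 h), and BFP-negative (IL-22-negative) cells at 12 h and at 0 h. MC38 is a mouse colon carcinoma line, whose cells reach the liver from the spleen through the portal vein. Each group was 1 library, made with the 10x Single Cell 3' v2 chemistry from tissue digested with collagenase and DNase I and enriched on Percoll. The labels state neither the age of the mice nor how many were pooled, and no group received the injection without cancer cells, so the operation and the cancer cells cannot be told apart. With 1 library per group no difference has a replicate check and no test was possible. Ratios between times or fractions compare single libraries, other ratios compare cells within 1 library, and every 95% interval covers counting error only.

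Macrophages and the monocytes that become them change their secreted products when tissue is wounded or invaded by a tumour. Arginase 1, the product of Arg1, breaks down the arginine that nitric oxide synthase 2, the product of Nos2, would otherwise turn into nitric oxide. The proteins of Spp1, Fn1 and Thbs1 (osteopontin, fibronectin and thrombospondin) are matrix ligands of integrins and CD47, that of Vegfa is the main growth factor of blood vessels, and Trem2 and Gpnmb encode membrane proteins of lipid-handling macrophages.

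Kept cells numbered 1345 and 283 in the 12 h and 0 h IL-22-positive libraries, and 9492 and 7928 in the IL-22-negative ones, with median depths of 3719, 3352, 2153 and 1794 UMIs in the same order. At 12 h and 0 h the Lyz2 gate took 1198 (89.1%) and 184 (65.0%) of the IL-22-positive cells, and 2030 (21.4%) and 1201 (15.1%) of the IL-22-negative cells. It did not hold the same kinds of cells in each. Monocyte-like cells, a cluster led by Saa3, Chil3, Lyz2, Hp and F13a1, made up 90.6% and 75% of the gated cells in the 12 h and 0 h IL-22-positive libraries, against 29.0% and 11.9% in the IL-22-negative ones. Macrophage-like cells, a cluster led by C1qa, C1qb and C1qc in which the Kupffer cell genes Clec4f and Marco were mostly at 0, made up 4.67%, 16.3%, 0.345% and 0.416%. Of the gated IL-22-negative cells, 1092 of 2030 at 12 h and 889 of 1201 at 0 h held a single Lyz2 UMI. Among B-cell-like cells, which should lack Lyz2, 13.5% and 11.1% had passed the gate in those libraries, at median depths of 1590.5 and 1714 UMIs, against 98.0% and 99.3% of monocyte-like cells at 4975 and 4365.5 UMIs. Values within the clusters are therefore given beside those of the gate. The 9 genes, Lyz2 and Il22 were left out when the clusters were made. Between libraries, 0 to 116 cell barcodes were shared, the most between the IL-22-negative ones.

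Arg1 lies on chr10:24915221-24927484 of the mouse genome GRCm38, on the minus strand. Among gated cells, Arg1 held 942 UMIs in 72 of 1198 cells (6.01%, 95% interval 4.73 to 7.51) of the 12 h IL-22-positive library and 684 UMIs in 43 of 2030 cells (2.12%, 1.54 to 2.84) of the IL-22-negative one. At 0 h it held 0 UMIs in 184 IL-22-positive cells, where a limit of 3 counts allows up to 1.63% of cells with an Arg1 UMI, and 0 in 1201 IL-22-negative cells, where it allows up to 0.25%; cells that express Arg1 below detection are not limited by this. As UMIs per 1000000 summed UMIs of the gated cells of the library (CPM), these were 201 (189 to 215) and 91.8 (85.1 to 99.0) at 12 h. Arg1 was thus seen in gated cells at 12 h in both fractions and at neither 0 h. Against a floor of 3 UMIs for the summed cells at 0 h, it was at least 54.4-fold higher at 12 h than at 0 h in IL-22-positive cells and at least 91.9-fold higher in IL-22-negative cells. The UMIs came from few cells, and the richest ones, an IL-22-positive cell with 146 UMIs and an IL-22-negative one with 82, carried 15.5% and 12.0% of the gate's Arg1.

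Pf4 encodes platelet factor 4, a chemokine of platelets that macrophages also make, and lies on chr5:90772435-90773383 on the plus strand. In the IL-22-positive libraries its gated cells held 771 UMIs at 12 h, in 59 of 1198 cells (165 CPM), against 53 UMIs at 0 h, in 15 of 184 cells (65.4 CPM). In the IL-22-negative libraries they held 289 UMIs at 12 h, in 19 of 2030 cells (38.8 CPM), against 0 UMIs in 1201 cells at 0 h. Unlike Arg1, Pf4 was present at 0 h, in the IL-22-positive fraction. It was 2.52-fold higher at 12 h than at 0 h there (1.91 to 3.40) and at least 38.8-fold higher in IL-22-negative cells. A single cell decided part of this: it held 282 of the 771 UMIs, and without it the IL-22-positive ratio was 1.60. The share of gated cells with Pf4 ran the other way, at 4.92% (3.77 to 6.31) at 12 h and 8.15% (4.63 to 13.1) at 0 h.

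The matrix genes were higher at 12 h in both fractions, over unlike levels at 0 h. Spp1 (chr5:104435118-104441050, plus strand) had 321 UMIs at 12 h (68.6 CPM) against 4 UMIs at 0 h (4.94 CPM) in gated IL-22-positive cells, and 265 UMIs (35.6 CPM) against 7 UMIs (2.33 CPM) in IL-22-negative cells. Its ratios were 13.9 (5.38 to 51.3) and 15.3 (7.30 to 38.3), both from a few UMIs at 0 h. At 12 h the richest cell held 75 Spp1 UMIs (23.4%) in the IL-22-positive gate and 40 (15.1%) in the IL-22-negative one. Thbs1 (chr2:118111876-118127133, plus strand) had 1134 UMIs in 35.5% of cells at 12 h (242 CPM) against 40 UMIs in 13.6% at 0 h (49.4 CPM) in IL-22-positive cells, a ratio of 4.91 (3.58 to 6.91). In IL-22-negative cells it had 642 UMIs in 9.95% of cells (86.2 CPM) against 29 UMIs in 1.5% (9.66 CPM), a ratio of 8.92 (6.15 to 13.4). Fn1 (chr1:71585520-71653200, minus strand), found in more gated cells of every library than any other of the 9, differed least of the matrix genes. It had 3699 UMIs at 12 h (791 CPM, 59.9% of cells) against 338 at 0 h (417 CPM, 38.6%) in IL-22-positive cells, and 2957 (397 CPM, 25.1%) against 650 (217 CPM, 12.3%) in IL-22-negative cells. Its ratios of 1.90 (1.70 to 2.13) and 1.83 (1.68 to 2.0) stayed below 2-fold.

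Vegfa (chr17:46016993-46032369, minus strand) was detected with few UMIs, at most 5 in a gated cell. Gated IL-22-positive cells held 149 UMIs at 12 h (31.9 CPM, 8.68% of cells) against 5 UMIs at 0 h (6.17 CPM), and IL-22-negative cells 68 (9.13 CPM, 2.66%) against 9 (3.00 CPM). The ratios were 5.16 (2.16 to 16.1) and 3.04 (1.51 to 6.94).

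Trem2 and Gpnmb did not follow the other genes. Trem2, a lipid receptor gene on chr17:48346401-48354147 (plus strand), had 487 UMIs at 12 h (104 CPM, 25.5% of cells) against 95 UMIs at 0 h (117 CPM, 22.8%) in gated IL-22-positive cells, and 238 (31.9 CPM, 8.08%) against 66 (22.0 CPM, 3.91%) in IL-22-negative cells. The ratios of 0.888 (0.712 to 1.12) and 1.45 (1.10 to 1.94) lay on either side of 1. Gpnmb, which encodes a glycoprotein of lysosome-rich macrophages (chr6:49036546-49070929, plus strand), was lower at 12 h in IL-22-positive cells, with 39 UMIs in 16 cells (8.34 CPM) against 52 UMIs in 8 cells at 0 h (64.2 CPM), a ratio of 0.130 (0.0835 to 0.201). Of the 52 UMIs, 16 (30.8%) lay in 1 cell. In IL-22-negative cells Gpnmb had 12 UMIs at 12 h and 2 at 0 h, too few for a ratio. Nos2 (chr11:78920787-78960254, plus strand) was almost undetected, with 9 UMIs in 7 gated IL-22-positive cells and 7 UMIs in 6 IL-22-negative cells at 12 h, and 0 UMIs in both gates at 0 h.

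**Figure D1:**
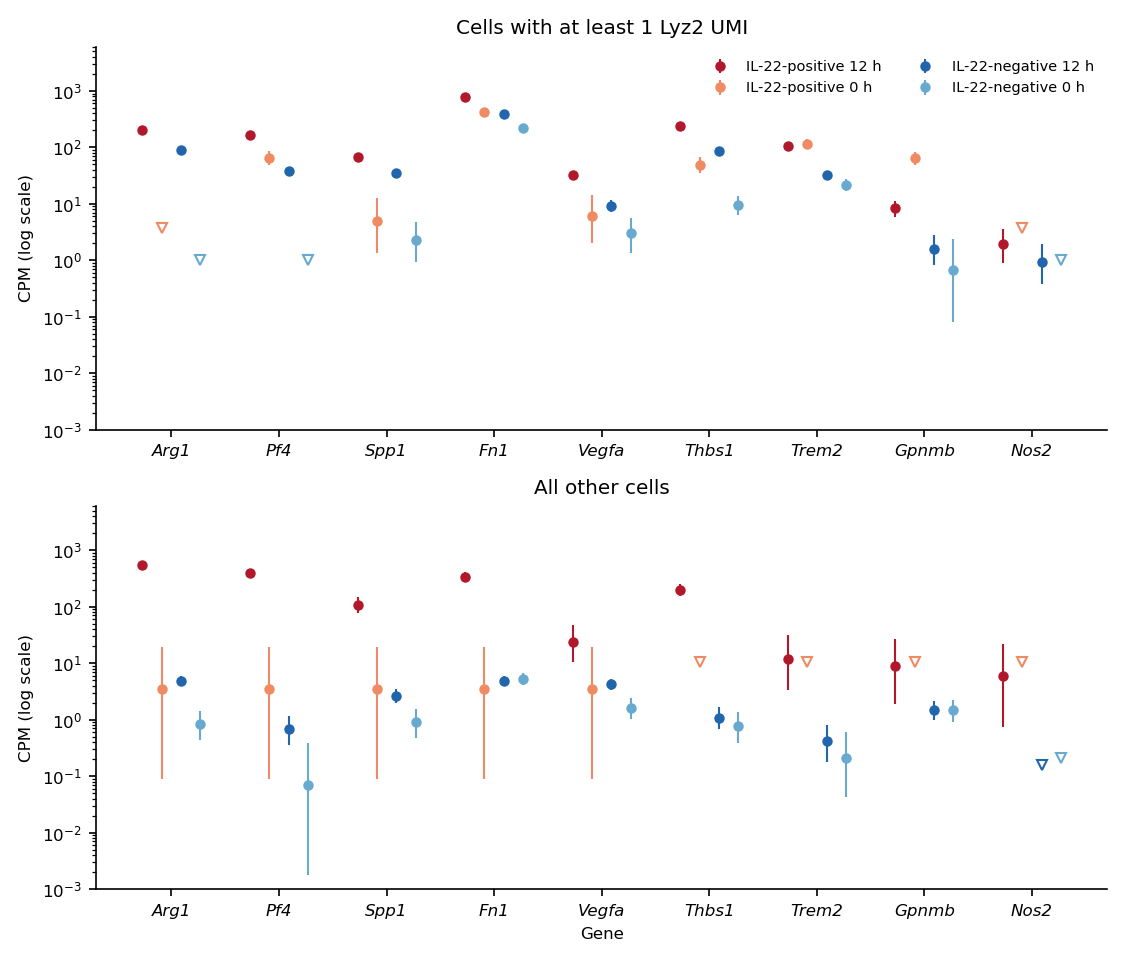
Level of each of the 9 genes in CPM (log axis) in gated cells (upper panel) and in all other cells (lower panel) of the 4 libraries, with the 95% counting intervals as bars; triangles mark sums of 0, drawn at the floor of 3 UMIs. In the upper panel Arg1 stands at 201 and 91.8 CPM at 12 h and at its floor at both 0 h, while Trem2 in IL-22-positive cells lies at 104 CPM at 12 h and 117 CPM at 0 h.

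Counted together, 5 of the 8 genes with at least 20 UMIs in the 2 sums were at least 2-fold higher at 12 h than at 0 h in gated IL-22-positive cells, where 5.57% of all 8676 genes counted were, and 1 (Gpnmb) was at least 2-fold lower, where 7.96% were. In IL-22-negative cells 5 of 7 were at least 2-fold higher, where 4.17% of 10618 genes were, and 0 were lower, where 7.66% were. The same 5 genes made up both counts: Arg1, Pf4, Spp1, Vegfa and Thbs1. The counted genes had a median log2 ratio of 1.81 for IL-22-positive and 3.16 for IL-22-negative cells, beside -0.06 and -0.17 over all genes counted. The genes were listed with these results in view, so the counts describe them and support nothing further.

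Set against the other cells of the same library, the gated cells held more of most of the 9 genes in 3 libraries and not in the 12 h IL-22-positive one. There, 2 of 8 genes were at least 2-fold higher in gated than in other cells, where 13.3% of all genes were, and 2 were lower, where 9.92% were. In the 0 h IL-22-positive library 5 of 5 were higher (23.7% of all genes), in the 12 h IL-22-negative one 7 of 8 (10.3%), and in that of 0 h 4 of 6 (6.10%), with 0, 0 and 1 lower (10.8%, 10.8% and 5.10% of all genes). These ratios belong to the rule by which the genes were looked at and are a description. In the 12 h IL-22-positive library Trem2 had the highest ratio, 8.60, at 104 CPM in gated against 12.1 CPM in other cells, and in the IL-22-negative one Fn1 had, 82.6, at 397 against 4.81 CPM. Arg1 and Pf4 were lower in gated than in other cells of the 12 h IL-22-positive library, Arg1 at 201 against 548 CPM (ratio 0.368, 0.313 to 0.434) and Pf4 at 165 against 399 CPM (0.413, 0.343 to 0.5). With the monocyte-like and macrophage-like clusters in place of the gate both directions turned, to 17.3 for Arg1 and at least 27.9 for Pf4. In the 12 h IL-22-negative library the gate's ratios were 18.7 for Arg1 and 57.7 for Pf4.

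The Arg1 outside the gate in the 12 h IL-22-positive library sat in 10 of 147 cells without a Lyz2 UMI, with 181 UMIs. Of these 10 cells 9 were monocyte-like by cluster, and they held 177 of the 181 UMIs. In the 12 h IL-22-negative library, 33 cells without Lyz2 held 95 Arg1 UMIs: 2 monocyte-like cells had 54 of them, and the other 31 cells had 41, at most 4 each. Arg1 level also varied with Lyz2 within the 12 h IL-22-positive library. It was 548 CPM in cells with 0 Lyz2 UMIs, 390 with 1, 1279 with 2, 619 with 3 to 9 and 122 in the 893 cells with 10 or more. In the IL-22-negative library the same steps gave 4.91, 21.1, 135, 192 and 126 CPM, where 81.5% of the cells without Lyz2 were lymphoid by cluster. The highest values thus lay at 2 Lyz2 UMIs in the IL-22-positive library and at 3 to 9 in the IL-22-negative one. They rested on 6 of 42 and 9 of 164 cells with Arg1. At 2 Lyz2 UMIs in the IL-22-positive library, 1 cell held 58 of the 98 Arg1 UMIs. Cells of that step had a median depth of 1482.5 UMIs, against 4402 for cells with 10 or more. The part of depth in these steps was not tested.

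By cluster, nearly all Arg1 lay in monocyte-like cells. They held 99.5% of its UMIs in the 12 h IL-22-positive library and 93.3% in the IL-22-negative one, at 251 CPM in 7.18% of 1114 cells and 246 CPM in 6.32% of 601 cells. Monocyte-like cells of 0 h, 141 IL-22-positive and 144 IL-22-negative, held 0 Arg1 UMIs. The 62 macrophage-like cells of the 12 h IL-22-positive library held 0 as well. B-cell-like cells, which should lack Arg1, had 5 UMIs in 5 of 1858 cells (0.269%) of the 12 h IL-22-negative library, at a median of 1590.5 UMIs per cell against 4975 in monocyte-like cells. T-cell-like cells there had 33 UMIs in 20 of 3366 cells (0.594%).

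The monocyte-like class did not hold the same cells at both times. Leiden clustering at resolution 2 split it into a cluster led by Saa3, Chil3 and F13a1, a cluster led by Ace, Ear2 and Adgre4, which are genes of non-classical (patrolling) monocytes, a cluster led by Arg1, Ccl24 and Rsad2, and a part of the C1q cluster. The Ace cluster made up 29.7% of monocyte-like cells at 12 h against 74.5% at 0 h in the IL-22-positive libraries, and 21.6% against 81.9% in the IL-22-negative ones. The Saa3 cluster was 372 cells at 12 h against 2 at 0 h in the IL-22-positive libraries, and 307 against 8 in the IL-22-negative ones. The cluster led by Arg1, found with Arg1 itself left out, held 316 monocyte-like cells at 12 h against 20 at 0 h, and 119 against 16. It carried 91.3% of the Arg1 and 91.3% of the Pf4 UMIs of monocyte-like 12 h IL-22-positive cells, and 99.4% and 94.9% of those of the IL-22-negative ones. Its top 10 genes also held Cxcl9, Cxcl10, Ifi205 and Ifit2, and no gene of the monocyte list. The list of red blood cell genes scored highest there, at a mean log2 ratio of 2.59 to all other cells, and the monocyte list next, at 2.01. The name monocyte-like for the cells with Arg1 thus holds at resolution 1 only.

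Arg1 within that cluster was at 836 CPM in 57 of 316 cells for 12 h IL-22-positive and 1266 CPM in 36 of 119 cells for 12 h IL-22-negative, with 0 UMIs in the 20 and the 16 cells of 0 h. In the Ace cluster it was at 18.5 CPM at 12 h in IL-22-positive cells and had 0 UMIs in IL-22-negative ones, with 0 in both at 0 h. Few cells of 0 h could thus be set beside the 12 h cells with Arg1.

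With each cell thinned to 1000 UMIs, 4.67% of 1071 monocyte-like 12 h IL-22-positive cells and 4.64% of 582 IL-22-negative ones kept an Arg1 UMI, after 43 and 19 shallower cells were left out. None of the thinned monocyte-like cells of 0 h did, in either fraction. The difference between 12 h and 0 h was therefore also seen at equal depth, over the unlike clusters named above.

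Pf4 was held by both classes. At 12 h most of its UMIs were in monocyte-like cells, 88.3% in the IL-22-positive library and 97.0% in the IL-22-negative one, against 11.7% and 1.66% in macrophage-like cells, while at 0 h macrophage-like cells held 83.3% in the IL-22-positive library. Its level was higher in macrophage-like cells. IL-22-positive macrophage-like cells held it at both times, at 752 CPM in 43.5% of 62 cells at 12 h and 424 CPM in 44.1% of 34 cells at 0 h, a ratio of 1.77 (1.24 to 2.57). Of the 3 genes with enough UMIs in macrophage-like cells, 0 were at least 2-fold higher at 12 h, where 10.4% of all genes were, and 1, Fn1, was lower, with 1 UMI against 42 in 3 cells, where 5.87% were. Monocyte-like cells of those libraries held 797 UMIs at 12 h (179 CPM) against 9 UMIs at 0 h (14.4 CPM), the 9 in 1 cell, and the ratio was 12.4 (6.51 to 27.3). In monocyte-like IL-22-negative cells Pf4 was at 99.1 CPM at 12 h and had 0 UMIs at 0 h, at least 20.3-fold higher at 12 h. Of the 8 macrophage-like cells in the 12 h IL-22-negative library 3 held Pf4, and 0 of 5 at 0 h. The gate's Pf4 ratio of 2.52 thus lay between those of IL-22-positive macrophage-like cells, 1.77, and monocyte-like cells, 12.4. Macrophage-like cells were 4.67% of that gate at 12 h and 16.3% at 0 h, and the part of this in the ratio was not tested.

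Trem2 also had its higher level in macrophage-like IL-22-positive cells, although monocyte-like cells held 88.4% of its UMIs at 12 h and 74.7% at 0 h in those libraries, and 95.1% and 91.3% in the IL-22-negative ones. It was at 397 CPM in 45.2% of macrophage-like IL-22-positive cells at 12 h, against 226 CPM in 41.2% at 0 h (ratio 1.76, 1.07 to 2.96). Against monocyte-like cells of the same 12 h library, macrophage-like cells had 4.19-fold more Pf4 (3.39 to 5.14) and 4.06-fold more Trem2 (3.02 to 5.38). They had less of 4 others: Fn1, with 1 UMI against 3759, Thbs1, with 1 against 1158, and Arg1 and Spp1, with 0 UMIs each. These were 2 of 8 genes at least 2-fold higher and 4 at least 2-fold lower, where 20.9% and 10.3% of all genes were. Vegfa, Gpnmb and Nos2 had 0 UMIs in the macrophage-like cells of both IL-22-positive libraries, where the floor of 3 UMIs was 21.3 CPM at 12 h and 28.3 CPM at 0 h. In monocyte-like cells Gpnmb (9.01 CPM) and Nos2 (2.48 CPM) at 12 h and Vegfa (8.03 CPM) at 0 h were below these floors. Those zeros thus do not show a lower level. Of the 52 Gpnmb UMIs at 0 h, all lay in 8 monocyte-like cells.

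**Figure D2:**
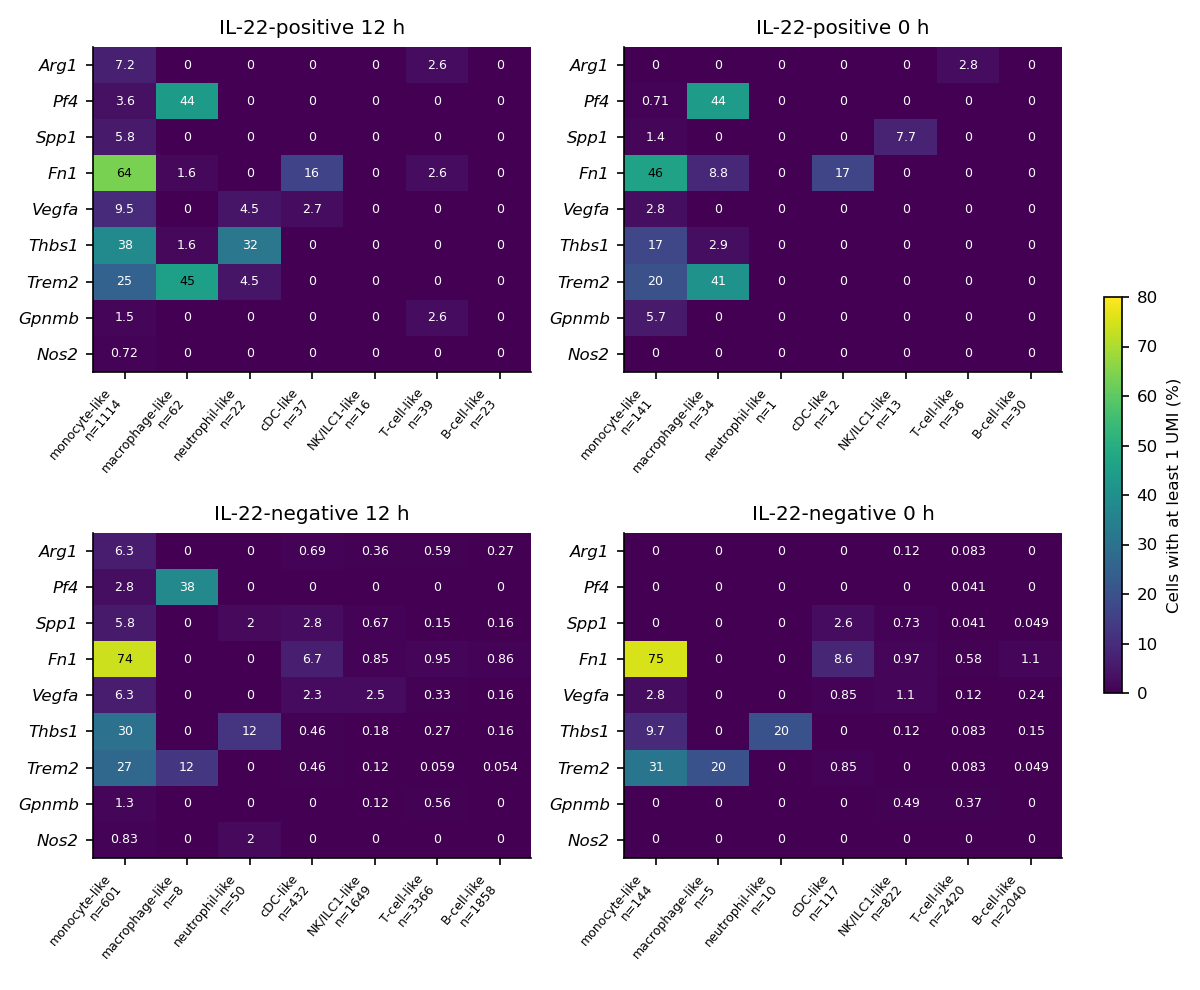
Share of cells with at least 1 UMI of each gene (rows) by cell class (columns, with the number of cells) in the 4 libraries; the colour and the printed number both give the percentage, with no error drawn. Arg1 is printed at 7.2 and 6.3 in monocyte-like cells at 12 h and at 0 in those of 0 h, while Pf4 reaches 44 in IL-22-positive macrophage-like cells at both times.

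UMIs of some of the 9 genes were also found outside both classes. In the 12 h IL-22-negative library, NK-or-ILC1-like cells carried 36.7% of all Vegfa UMIs, 55 in 41 of 1649 cells (15.5 CPM), beside 15.2 CPM in monocyte-like cells and 0.869 CPM (3 UMIs) in 1858 B-cell-like cells, which should lack these genes. NK-or-ILC1-like cells had 5.53 CPM of Vegfa at 0 h. Of the 12 h library's few Gpnmb UMIs, 20 lay in 19 of 3366 T-cell-like cells (0.564%), nearly all as single UMIs, against 0 in the B-cell-like cells, and no expression is read from them. Neutrophil-like cells held Thbs1 in 7 of 22 IL-22-positive cells at 12 h, and in 6 of 50 IL-22-negative cells at 12 h against 2 of 10 at 0 h. Fn1 was found in 36 of 996 cells of unnamed clusters of the 12 h IL-22-negative library (104 CPM), and in 47 of 1964 at 0 h (77.5 CPM), beside 4.92 CPM in B-cell-like cells at 12 h and 6.01 CPM at 0 h. Thbs1 was at 0.869 CPM in the B-cell-like cells of the 12 h IL-22-negative library. In the 12 h IL-22-positive library, the 21 cells of unnamed clusters had higher levels of Fn1 and Thbs1 than monocyte-like cells. Fn1 was at 2331 CPM (1694 to 3129.6) in 10 of them, against 846 CPM. Thbs1 was at 1589 CPM (1072 to 2269) in 11 of them, against 261 CPM. These unnamed cells were shallow, at a median of 845 UMIs.

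Within monocyte-like cells alone, mostly of the Ace cluster at 0 h and of other clusters at 12 h, 5 genes again passed 2-fold. In IL-22-positive cells 5 of 8 genes were at least 2-fold higher at 12 h, where 6.53% of all genes were, and 1 was lower, where 7.40% were. In IL-22-negative cells 5 of 7 were higher, where 7.15% were, and 0 lower, where 4.17% were. Spp1 was 12.5-fold higher at 12 h in IL-22-positive cells (80.4 against 6.42 CPM; 4.85 to 46.2) and at least 17.4-fold higher in IL-22-negative ones (84.9 CPM against 0 UMIs). Thbs1 was 4.16-fold (3.03 to 5.89) and 5.40-fold (3.56 to 8.58) higher, and Vegfa 4.29-fold (1.80 to 13.4) and 2.34-fold (0.853 to 8.96) higher, the last with an interval that reached below 1. Fn1 had unlike ratios in the fractions here. It was 1.81-fold higher at 12 h in IL-22-positive monocyte-like cells (846 against 467 CPM) and 1.11-fold in IL-22-negative ones (898 against 812 CPM; 1.01 to 1.22), so the gate's Fn1 ratio of 1.83 in the IL-22-negative fraction was not seen within the class. The difference between the fractions was not tested. Trem2 was at 0.857 (0.666 to 1.12) and 0.772 (0.583 to 1.04) of its 0 h level.

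The Ace cluster was the one part of the class with over 100 cells in each library, and there the values were unlike those of the class. Fn1 was at 373 CPM (335 to 413) at 12 h against 503 CPM (437 to 577) at 0 h in IL-22-positive cells, and at 476 (416 to 543) against 835 (757 to 919) in IL-22-negative cells, so that it was lower at 12 h in both. Thbs1 was higher, at 139 CPM (116 to 164) against 78.5 (53.7 to 111) in IL-22-positive cells and 105 (77.4 to 138) against 40.1 (24.5 to 61.9) in IL-22-negative cells. Spp1 had 5 UMIs against 0 in IL-22-positive cells, and 41 UMIs in 2 cells against 0 in IL-22-negative ones. Pf4 had 3 UMIs in 1 cell at 12 h in IL-22-positive cells and 0 in the other libraries. Trem2 was at 82.1 CPM (65.1 to 102) against 44.2 (26.2 to 69.8) and at 87.5 (62.8 to 119) against 114 (86.5 to 148). The split was looked at after the other values were known.

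The comparison of the sort fractions also depended on the gate. Among gated cells of 12 h, 6 of 8 genes were at least 2-fold higher in IL-22-positive than in IL-22-negative cells, where 8.02% of all genes were, and 0 were lower, where 17.7% were. The ratios were 2.19 for Arg1 (1.99 to 2.42), 4.25 for Pf4 (3.71 to 4.88), 3.49 for Vegfa, 2.81 for Thbs1, 3.26 for Trem2 and 5.18 for Gpnmb, with 1.93 for Spp1 and 1.99 for Fn1. Monocyte-like cells made up 90.6% of the IL-22-positive and 29.0% of the IL-22-negative gate. Within monocyte-like cells, 2 of 8 genes were at least 2-fold higher, where 3.04% of all genes were, and 0 were lower, where 6.94% were. Arg1 was at 251 CPM in IL-22-positive and 246 CPM in IL-22-negative monocyte-like cells, a ratio of 1.02 (0.931 to 1.12). Spp1 at 0.947 (0.803 to 1.12) and Fn1 at 0.942 (0.896 to 0.991) were likewise near 1, and Thbs1 at 1.29 and Trem2 at 1.23 slightly above. Pf4 was 1.81-fold higher (1.58 to 2.08), Vegfa 2.26-fold (1.61 to 3.23) and Gpnmb 2.96-fold (1.41 to 6.93; 40 against 9 UMIs). The Pf4 ratio within the class leaned on few cells. A single cell held 282 of its 797 UMIs in the IL-22-positive library, and another 91 of 293 in the IL-22-negative one. How far the class ratio depends on them was not tested. Without the richest Pf4 cell the gate's Pf4 ratio was 2.70, and without cells with at least 2 UMIs of hepatocyte genes it was 2.0.

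At 0 h, 4 of 5 genes were at least 2-fold higher in gated IL-22-positive cells than in IL-22-negative ones, where 11.6% of all genes were, and 0 were lower, where 19.9% were. These were Pf4, at least 65.5-fold, Thbs1, 5.11-fold, Trem2, 5.33-fold, and Gpnmb, 96.3-fold from 2 UMIs in the IL-22-negative cells (25.4 to 817). Fn1 was 1.93-fold higher in the gate, but 0.576 of the IL-22-negative level within monocyte-like cells (0.496 to 0.667; 467 against 812 CPM). Within that class 1 of 4 genes, Gpnmb, was at least 2-fold higher, where 7.48% of all genes were, and 0 were lower, where 3.85% were. The Fn1 difference thus ran in opposite directions in the gate and in the class.

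**Figure D3:**
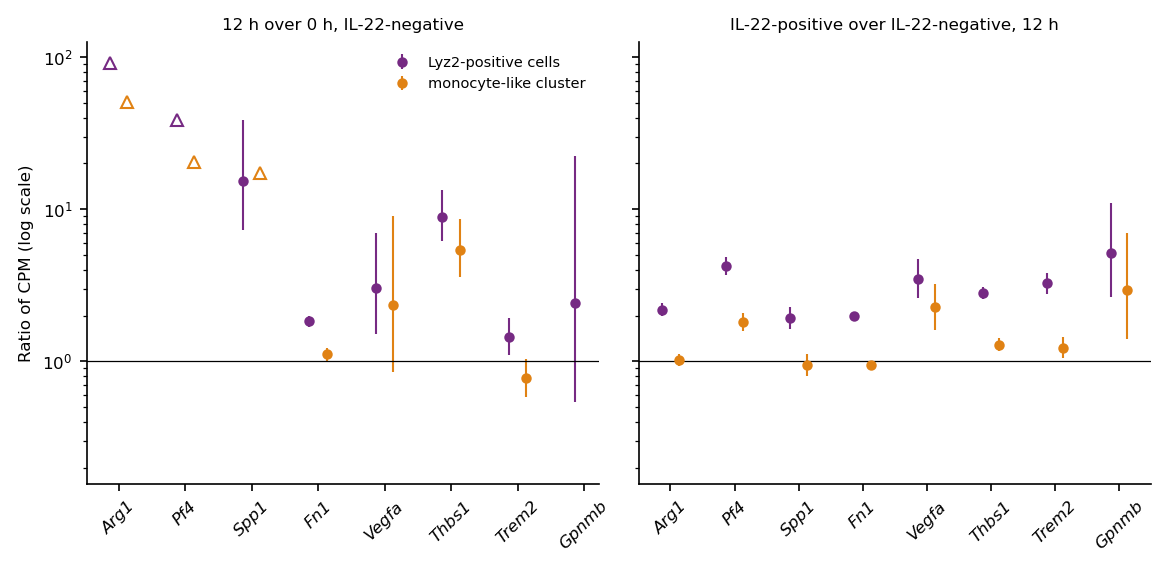
Ratios of CPM on a log axis for 12 h over 0 h in IL-22-negative cells (left) and for IL-22-positive over IL-22-negative cells at 12 h (right), each gene in gated cells and in the monocyte-like cluster, with 95% counting intervals; open triangles are lower bounds against a sum of 0, the line is at 1, and Gpnmb in the left panel rests on 12 and 2 UMIs. At right the Arg1 ratio is 2.19 in gated and 1.02 in monocyte-like cells, whereas at left Thbs1 is 8.92 and 5.40.

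Arg1 and Pf4 were found together in single cells. In gated 12 h IL-22-positive cells, 24 cells held both, where 4.02 were expected if the genes were independent at equal depth (a ratio of 5.96). The expected count was summed over 5 depth bins per library. In IL-22-negative cells 13 held both, where 0.507 were expected (25.6). With clusters in place of the gate, 30 IL-22-positive cells held both where 5.64 were expected (5.32), and 14 IL-22-negative cells where 1.41 were (9.93). The pair was 33.3% of the Arg1-positive and 40.7% of the Pf4-positive gated cells in the IL-22-positive library, and 30.2% and 68.4% in the IL-22-negative one. These cells carried 66.7% of the gate's Arg1 UMIs and 84.8% of its Pf4 UMIs in the IL-22-positive library, and 54.2% and 92.0% in the IL-22-negative one. Cells with both had a median of 10.5 Arg1 UMIs against 2.5 in cells with Arg1 alone in the IL-22-positive library, and 23.0 against 3.5 in the IL-22-negative one.

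Other pairs with Arg1 were also above their expected counts among gated cells. Monocyte-like cells, which held nearly all Arg1, were 29.0% of the gated 12 h IL-22-negative cells. Of the monocyte-like cells there, 74.0% held Fn1 and 26.6% Trem2, against 25.1% and 8.08% of the gated cells. These pairs were not counted within the class. Arg1 and Spp1 were found together in 13 IL-22-positive cells, where 3.29 were expected, and in 14 IL-22-negative cells, where 1.48 were. Arg1 and Vegfa shared 25 cells (5.89 expected) and 9 cells (1.69 expected), and Arg1 and Thbs1 shared 51 (24.8 expected) and 26 (6.11 expected). Fn1, present in many cells, shared 59 with Arg1 (41.4 expected) and 35 (16.1 expected). Trem2 did not follow: it shared 18 cells with Arg1 where 16.9 were expected, and 7 where 5.55 were. Nos2 and Arg1 met in 2 IL-22-positive cells and in 0 IL-22-negative ones. Cells with Arg1, Pf4 and Spp1 together numbered 7 and 6. At 0 h, Pf4 and Trem2 shared 9 gated IL-22-positive cells, where 3.58 were expected. None of the 9 genes was found in 21.9% and 39.7% of gated cells of the 12 h and 0 h IL-22-positive libraries, and in 69.6% and 85.6% of those of the IL-22-negative ones.

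**Figure D4:**
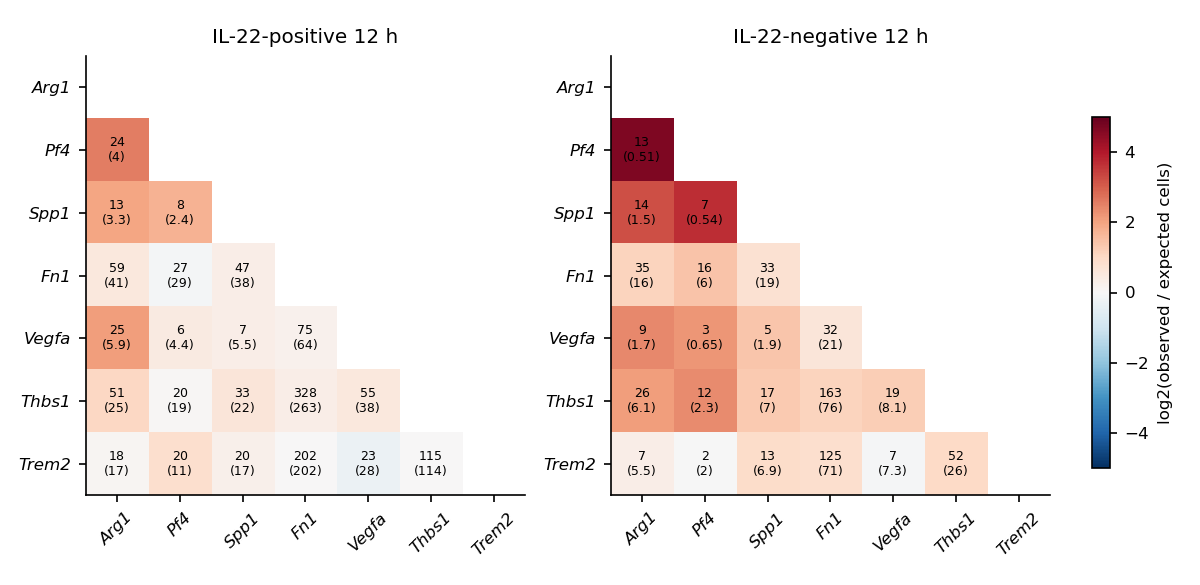
Gated cells of the 12 h libraries holding both genes of a pair, with the number expected at equal depth in brackets; colour gives the log2 of observed over expected. Arg1 with Pf4 is observed at 5.96 times the expected count for IL-22-positive and 25.6 times for IL-22-negative cells, while Arg1 with Trem2 is at 1.07 and 1.26 times.

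The cells with both Arg1 and Pf4 were monocyte-like without exception, 30 in the 12 h IL-22-positive library (6 of them without Lyz2) and 14 in the IL-22-negative one. At resolution 2, 26 of the 30 and all 14 were in the cluster led by Arg1. In the IL-22-positive libraries, cells with Pf4 and no Arg1 lay mostly in another cluster. Of 37 at 12 h 27 were macrophage-like and 10 monocyte-like, and of 16 at 0 h 15 were macrophage-like. At resolution 2, 30 of these 37 and all 16 were in the cluster led by C1qa. A list of 10 macrophage genes summed to 17917 CPM in the 37 cells and to 3679 CPM in the 30 with both genes, against 1385 CPM in gated cells with neither Arg1 nor Pf4. In the 12 h IL-22-negative library, 10 cells had Pf4 and no Arg1: 3 macrophage-like, 3 monocyte-like and 4 of other classes. At resolution 2, 3 of these 10 were in the cluster led by C1qa. The richest Pf4 cells of 12 h were thus Arg1-positive monocyte-like cells. The cells with Pf4 alone were mostly macrophage-like in the IL-22-positive libraries only.

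**Figure D5:**
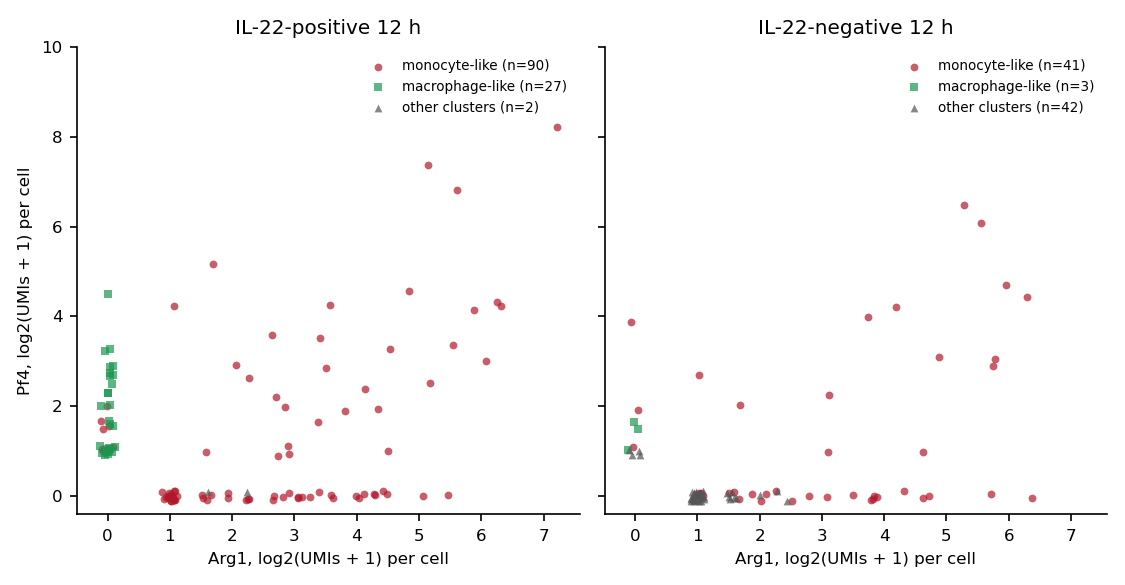
Arg1 (horizontal) against Pf4 (vertical) in single cells of the 12 h libraries, as log2 of UMIs plus 1, 1 point per cell with either gene, moved slightly at random so that points do not cover each other and marked by class. Cells with both genes, 30 IL-22-positive and 14 IL-22-negative, are all monocyte-like, and macrophage-like cells lie at 0 Arg1.

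Monocyte-like cells with Arg1 also differed from those without it in other genes, described here at 12 h for 80 against 1034 IL-22-positive cells and 38 against 563 IL-22-negative ones. The genes of the monocyte list did not all run the same way. Ly6c2 was at 0.453 and 0.185 of the level without Arg1, and Plac8 at 0.625 and 0.375. Chil3 was at 0.443 and 0.617, Ms4a4c at 0.531 and 0.460 and Ccr2 at 0.690 and 0.778. F13a1 was at 1.18 (1.03 to 1.34) and 0.769 (0.639 to 0.919). Vcan was higher, 1.61-fold (1.31 to 1.95) and 2.22-fold (1.81 to 2.70). Lyz2, which is not on the list, was at 0.466 and 0.326. C1qb, which encodes a chain of complement C1q and is a gene of macrophages, was 2.54-fold and 2.59-fold higher. Adgre1, a surface receptor gene of macrophages, was at 0.397 (0.158 to 0.830) and 0.695 (0.275 to 1.47) of the level without Arg1. Among the 9 genes, Spp1 was 18.2-fold and 17.7-fold higher, Thbs1 6.09-fold and 7.22-fold, Vegfa 5.89-fold and 4.29-fold, and Fn1 4.17-fold and 2.37-fold. Trem2 was at 1.16 (0.783 to 1.67) and 0.882 (0.462 to 1.54). Saa3, an acute-phase gene, ran in opposite directions, 2.08-fold higher in IL-22-positive and 0.588 in IL-22-negative cells. The Arg1-and-Pf4 cells were shallow in the IL-22-positive library, at a median of 1987 UMIs against 4013 in gated cells with neither gene, and the part of depth in these ratios was not tested.

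The genes most enriched in Arg1-positive cells in both libraries of 12 h, ranked by the lower of the 2 ratios of CPM in Arg1-positive over Arg1-negative gated cells among 497 eligible genes, were Pf4 (91.7 and 383), Cxcl3 (40.2 and 67.5), Ccl24 (34.1 and 155), Spp1 (16.9 and 34.9), Ccl7 (12.0 and 65.9), Hmox1 (6.54 and 15.3), Thbs1 (5.72 and 14.1), Ctsl (5.01 and 5.23), Ccl9 (4.97 and 10.3) and Basp1 (5.20 and 4.70). Eligible genes had at least 100 CPM and 50 UMIs in the Arg1-positive cells of both libraries, so genes seen only in Arg1-negative cells could not enter. The ranking is a description. Of the 10, Pf4, Cxcl3, Ccl24, Ccl7 and Ccl9 encode chemokines. The share of chemokines among the 497 genes was not counted, so no enrichment is read from this. For Pf4 the list of 183 eligible genes was led by Arg1 (53.0 and 114), Ccl24 (22.0 and 222) and Ccl7 (19.9 and 148), followed by C1qa (17.2 and 17.7) and C1qc (12.7 and 17.6). For Vegfa it was led by Cxcl3 (11.3 and 8.49) and Hilpda (7.73 and 7.45), a hypoxia-induced lipid droplet gene, and for Trem2 by C1qc (2.94 and 3.68). Gpnmb and Nos2 had under 20 positive cells and were not ranked. Monocyte-like cells were 29.0% of the 12 h IL-22-negative gate, so the second ratio of each pair also compares them with other cells. Within monocyte-like cells of that library the ratios for Arg1 were lower. They were 216 for Pf4, 74.8 for Ccl24, 35.5 for Cxcl3, 32.2 for Ccl7, 17.7 for Spp1, 7.65 for Hmox1 and 7.22 for Thbs1. In monocyte-like IL-22-positive cells Pf4 was at 760, Cxcl3 at 49.0, Ccl24 at 34.8 and Hmox1 at 6.46.

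Pf4 stands in a chemokine cluster on chromosome 5, between Ppbp, the platelet basic protein gene, 2371 bases before it, and Cxcl3, 12719 bases after it, all on the plus strand. Ppbp was found with Pf4. It had 16 UMIs in 4 cells of the 12 h IL-22-positive library, all with Pf4 and Arg1, and 135 UMIs in 7 cells of the IL-22-negative one, all with Pf4 and 5 with Arg1. The Ppbp-positive cells held 43.7% of all Pf4 UMIs of the IL-22-positive library and 76.8% of those of the IL-22-negative one. At 0 h Ppbp had 0 UMIs in the IL-22-positive library and 1 in the IL-22-negative one, in the cell that held its single Pf4 UMI.

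Ppbp and Pf4 are abundant in platelets, so 8 platelet genes were read in the same cells. In the cells with Arg1 and Pf4, 1 of the 8, Ppbp, was detected in both libraries, and Itga2b, Gp9, Gp1bb, Gp5, Gp6, Tubb1 and Treml1 were at 0. The 8 genes summed to 181 CPM for IL-22-positive and 2229.9 CPM for IL-22-negative cells with both genes, against 0 and 1.39 CPM in gated cells with neither. The other 7 genes had 10 UMIs in 2 IL-22-positive cells with Pf4 and no Arg1, which carried 12 Pf4 UMIs. Leaving out every cell with a UMI of the list, gated Pf4 was 1.55-fold higher at 12 h than at 0 h in IL-22-positive cells and at least 8.87-fold higher in IL-22-negative cells.

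Genes of other cells were found in some of them. A list of 5 genes of serosal cavity macrophages summed to 1223 CPM in the 30 IL-22-positive cells with Arg1 and Pf4, from 5 cells, with Prg4 the highest at 60 UMIs. It was at 12.5 CPM in gated cells with neither gene, where Prg4 and Alox15 were at 0, and all 5 genes were at 0 in the 14 IL-22-negative cells with both. Of the 10 hepatocyte genes, Trf and Apoc1 were detected in the IL-22-positive cells with both (192 CPM, against 129 CPM in gated cells with neither) and Trf alone in the IL-22-negative ones (193 CPM, against 65.6 CPM), with Alb at 0. The 6 epithelial genes, which a carcinoma cell could carry, were at 0 in the cells with both. The part of these lists in the results was not tested.

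The 250 bases before the start of Pf4, of its neighbours and of Spp1 are shown because Ppbp, Cxcl3 and Spp1 were found with Pf4 or Arg1 in single cells. They are RefSeq sequences of GRCm38.p6, on the plus strand, 5′ to 3′. For Spp1, which has 2 starts in the table, the window of the first is shown. Capitals mark TATAAA, the TATA box, and GAGGAAGT, a motif of the myeloid factor PU.1, or their reverse complements.
Pf4, chr5:90772185-90772434: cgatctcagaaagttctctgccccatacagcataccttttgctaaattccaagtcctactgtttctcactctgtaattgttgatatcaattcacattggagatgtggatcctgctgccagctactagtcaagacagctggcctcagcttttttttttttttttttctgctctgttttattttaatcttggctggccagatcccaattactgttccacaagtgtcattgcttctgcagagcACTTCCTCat
Ppbp, chr5:90768268-90768517: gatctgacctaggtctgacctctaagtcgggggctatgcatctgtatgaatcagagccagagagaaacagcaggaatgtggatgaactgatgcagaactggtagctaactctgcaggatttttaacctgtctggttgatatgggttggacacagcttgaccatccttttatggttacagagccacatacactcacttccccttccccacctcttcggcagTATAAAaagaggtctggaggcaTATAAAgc
Cxcl3, chr5:90785851-90786100: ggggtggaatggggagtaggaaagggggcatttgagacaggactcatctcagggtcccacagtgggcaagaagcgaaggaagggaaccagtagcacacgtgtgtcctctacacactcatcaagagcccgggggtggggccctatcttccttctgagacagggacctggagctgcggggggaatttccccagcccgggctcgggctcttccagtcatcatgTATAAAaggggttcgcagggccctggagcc
Spp1, chr5:104434861-104435110: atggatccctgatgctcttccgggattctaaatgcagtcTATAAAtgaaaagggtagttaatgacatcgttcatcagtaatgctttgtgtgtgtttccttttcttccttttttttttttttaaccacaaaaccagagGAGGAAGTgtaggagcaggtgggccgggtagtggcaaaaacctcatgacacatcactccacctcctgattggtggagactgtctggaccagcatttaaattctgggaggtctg

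On either strand, GAGGAAGT was found in 2.44% of 32851 promoter windows of this length, among them those of Pf4, beginning 10 bases before the start, and of the first start of Spp1, 113 bases before it. TATAAA was found in 12.4% of windows. Ppbp held it 30 and 8 bases before the start, Cxcl3 30 bases before and the first start of Spp1 211 bases before. The window of the second start of Spp1 held neither motif. Cxcl3 alone of the 4 held ACGTG, the core of the hypoxia response element, which was found in 16.6% of windows. The table held 5 of the 9 genes (Pf4, Spp1, Vegfa, Trem2 and Gpnmb). A match is a description of the sequence.

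The partners of the 9 genes were read in gated cells from 8 lists, which were also chosen with earlier results known. Over all genes counted, 5.57% were at least 2-fold higher and 7.96% lower at 12 h than at 0 h in IL-22-positive cells, and 4.17% and 7.66% in IL-22-negative cells. Of 12 genes of arginine and polyamine metabolism, 0 were at least 2-fold higher at 12 h than at 0 h and 1 lower (Sat1, 0.493) in IL-22-positive cells, and of 11 counted in IL-22-negative cells 1, Arg2, was higher and 1, Odc1, lower (0.497). These counts of 0 and 1 are near the shares over all genes. Of the chemokines beside Pf4, 5 of 11 were higher and 0 lower in IL-22-positive cells, and 10 of 12 and 0 in IL-22-negative cells, beside 5.57% and 4.17% of all genes higher. Ccl7, a ligand of the monocyte receptor CCR2, was at 130 CPM at 12 h against 18.5 CPM at 0 h in IL-22-positive cells (7.01-fold) and at 39.3 against 1.67 CPM in IL-22-negative cells (23.6-fold). Cxcl3 was at least 6.18-fold and at least 32.2-fold higher.

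Of the matrix ligands and receptors, 4 of 19 were higher and 2 lower in IL-22-positive cells, and 6 of 18 and 1 in IL-22-negative cells. Of all genes 5.57% and 4.17% were higher and 7.96% and 7.66% lower in the same order, near the counts of lower genes. Vcan, the proteoglycan versican of monocytes, was at 247 against 40.7 CPM in IL-22-positive cells (6.07-fold) and 135 against 14.3 CPM in IL-22-negative cells (9.40-fold). Of the genes of the VEGF axis and hypoxia, 7 of 15 were higher and 1 lower in IL-22-positive cells, and 4 of 17 and 1 in IL-22-negative cells. Hilpda was at 78.3 against 12.3 CPM in IL-22-positive cells (6.34-fold), Bnip3 was 5.49-fold and 2.73-fold higher, and Egln3, an oxygen sensor, at least 4.27-fold and 3.95-fold.

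Of the lipid and lysosome genes of Trem2 macrophages, 1 of 15 was higher and 3 lower in IL-22-positive cells (Fabp4 at 0.194, Cd36 at 0.363 and Cd9 at 0.460), and 1 of 13, Apoe, was higher and 0 lower in IL-22-negative cells. Of the genes of Trem2 signalling, 1 of 10 was higher and 1 lower in IL-22-positive cells, and 4 of 10 and 0 in IL-22-negative cells. Beside 5.57% higher and 7.96% lower of all genes in IL-22-positive cells and 4.17% and 7.66% in IL-22-negative cells, a count of 1 in a list of this size is near the shares over all genes. Of the genes of classical activation, to which Nos2 belongs, 2 of 12 were higher and 0 lower in IL-22-positive cells, among them Acod1 (2.41-fold), and 5 of 12 and 1 in IL-22-negative cells, where Acod1 was 12.8-fold higher (4.24 to 63.0). Of those of alternative activation, to which Arg1 belongs, 4 of 11 were higher and 4 lower in IL-22-positive cells, and 7 of 12 and 0 in IL-22-negative cells. Ccl24, an eosinophil chemokine, was at 165 against 19.7 CPM (8.34-fold) and 96.2 against 5.33 CPM (18.1-fold), whereas Retnla was at 5.77 CPM at 12 h against 331 CPM at 0 h in IL-22-positive cells (0.0175). Alternative activation genes thus did not move as one group with Arg1 in the IL-22-positive fraction. The monocyte-like share of the gated cells was 90.6% at 12 h and 75% at 0 h there, with 29.0% and 11.9% for the IL-22-negative fraction, and its part in these lists was not tested.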

How the data were processed

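Each library's matrix, as deposited, holds raw UMI counts per gene and cell barcode. The submitters' processing notes name Cell Ranger 3.0.1 and the mm10 genome, and the file headers name Cell Ranger 4.0.0. Total counts per library were 5048583 and 1148221 (IL-22-positive, 12 h and 0 h) and 29859062 and 18891674 (IL-22-negative). The 9 genes and all gene lists were chosen with earlier results of these data known.

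Cells needed 200 genes or more and less than 10% mitochondrial UMIs, which removed 28, 11, 132 and 254 in the same order. Scrublet doublet calls then removed 5, 6, 607 and 373. Its automatic threshold had marked 1 barcode in the 12 h IL-22-negative library, so the threshold of the 0 h one was used there, a choice made after seeing the data. UMIs were summed per library and cell group and scaled by the group's total UMIs to CPM. Intervals are exact: Poisson for sums, Clopper-Pearson for shares (a limit of 3 counts where 0 cells had a UMI), and conditional binomial for ratios. PCR duplicates are collapsed by UMI, so the intervals cover counting error of molecules and no variation between mice. A sum of 0 was set to 3 UMIs in ratios given as bounds. Genes with at least 20 UMIs over both sums were counted, against limits of 2-fold higher and 0.5 or lower. Leiden clusters (resolution 1, 2000 variable genes, 30 components, 15 neighbours) were named from marker lists, and clusters in place of the gate were added after seeing the data. Genes named beside the 9 are the top 10 (Arg1, Pf4) or top 5 (the others) by the lower of the ratios of the libraries of 12 h. They needed at least 100.0 CPM and 50 UMIs in the gated cells positive for the gene in both libraries. List genes past 2-fold are also named, and further genes were chosen after their values were seen. Alternatives were a gate of 3 Lyz2 UMIs, thinning to 1000 UMIs, median-ratio scaling, keeping doublets or all barcodes, and leaving out the richest cell or cells with hepatocyte, platelet or lymphocyte UMIs. The scripts were tested on simulated counts. Python 3.11.15, scanpy 1.11.5, numpy 2.4.6, scipy 1.17.1, pandas 2.3.3 and matplotlib 3.10.9 were used. Features matched GENCODE vM21 in 99.6% of 32285 cases, and promoter sequences are from RefSeq.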

Additional observations from a re-analysis of the deposited data

Results flagged for a closer look

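Some of the genes lay on opposite sides of 1 in different libraries when gated cells were set against other cells, and these differences between libraries were not tested. Arg1 was at 0.368 in the 12 h IL-22-positive library and at 18.7 in the 12 h IL-22-negative one. Pf4 was at 0.413 in the 12 h IL-22-positive library, against 18.5 in that of 0 h, where a single UMI lay outside the gate, and 57.7 in the 12 h IL-22-negative one. Of the cells outside the gate, 23.8% in the 12 h IL-22-positive library and 0.174% in the IL-22-negative one were monocyte-like or macrophage-like. Gpnmb was at least 6.06-fold higher in gated cells of the 0 h IL-22-positive library, and at 0.457 (0.0520 to 1.87) in the IL-22-negative one, from 2 UMIs in gated cells.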

How the results depend on the processing

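No paired analysis was possible because each group is 1 library and the labels carry no replicate numbers. The counts of genes at least 2-fold higher at 12 h than at 0 h, 5 in each fraction, stayed within 1.5 times under every alternative run. In gated over other cells, the count of 2 in the 12 h IL-22-positive library was 1 with a gate of 3 Lyz2 UMIs, 1 with all barcodes, 1 without cells with T, B or plasma cell UMIs, and 7 with clusters in place of the gate. The count of 5 in that of 0 h was 1 after thinning and 3 without cells with T, B or plasma cell UMIs. The count of 4 in the 0 h IL-22-negative library was 2 after thinning. For IL-22-positive over IL-22-negative cells, the 6 genes at 12 h were 3 with the gate of 3 UMIs and 2 with clusters, and the 4 at 0 h were 2 with the gate of 3 UMIs, 1 after thinning and 2 with clusters. Thinning leaves fewer UMIs and so fewer genes counted. The other causes were not tested. Ratios of single genes, over all comparisons, often moved. With the gate of 3 Lyz2 UMIs 28 moved and 33 stayed the same, and after thinning 29 and 29. With clusters 30 moved, 3 turned in direction and 26 stayed the same. Without cells with T, B or plasma cell UMIs these were 29, 2 and 32. Under each other alternative run on these ratios, 54 or more stayed the same.

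Directions turned for Pf4 in gated over other cells of the 12 h IL-22-positive library, which was 1.31 without cells with a platelet UMI and at least 27.9 with clusters, and for Arg1 there, which was 17.3 with clusters. They turned also for Vegfa in the 12 h IL-22-negative library (0.533) and Spp1 in that of 0 h (0.794), both without cells with T, B or plasma cell UMIs. For IL-22-positive over IL-22-negative at 12 h, Arg1 was 0.997 with clusters. Arg1 and Pf4 together were 11.5 times the expected count after thinning in the IL-22-positive library and 9.93 times with clusters in the IL-22-negative one. At Leiden resolution 2 the cluster richest in Arg1 held 90.8% of its UMIs in the 12 h IL-22-positive library, against 99.5% at resolution 1. That cluster had no monocyte gene among its top 10, and the cluster led by C1qa held 155 cells of this library, against 62 at resolution 1. Median-ratio scaling moved all genes by -0.17 on the log2 scale for 12 h over 0 h in IL-22-negative cells and for IL-22-positive over IL-22-negative at 0 h, and turned the direction of no ratio past 2-fold. The 0 h IL-22-positive library, with 283 cells, limits what its zeros show.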
